A study of Bos taurus with 6 samples.

Results

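Aminoacyl-tRNA synthetase genes were examined in bovine preadipocytes that had received the bta-miR-484 agomir or its negative control. The genes were taken by symbol: an amino acid letter followed by ARS, with or without a closing digit, together with *EPRS*, *FARSA* and *FARSB*. This gave 37 of the 23475 genes listed, of which 20 encode synthetases of the cytosol and 17, with symbols ending in 2, encode synthetases of the mitochondrion. The files carry the older symbols of the cytosolic genes, so that the gene now called *WARS1* is listed as *WARS*, and these symbols are kept here. *KARS* and *GARS* were counted as cytosolic, although each of these genes also supplies the mitochondrial enzyme. *TARSL2*, a further threonyl-tRNA synthetase gene, has a symbol outside this rule and averaged 0.347 ± 0.0905 FPKM (SD over the 6 libraries).

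An aminoacyl-tRNA synthetase joins an amino acid to its tRNA in a reaction that consumes ATP, and the charged tRNA is then handed to an elongation factor and carried to the ribosome. Cytosolic and mitochondrial protein synthesis mostly use separate synthetases, and the mitochondrial enzymes are made from nuclear genes and imported to serve the few respiratory chain proteins translated inside the organelle. In growing cells, many cytosolic synthetase genes are known to be induced by ATF4 when amino acids run short or the endoplasmic reticulum is under stress.

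The cells came from the subcutaneous fat of premature calves and were cultured in medium with high glucose and fetal bovine serum. Agomirs are modified miRNA duplexes used to increase the amount of an active miRNA in a cell. The agomir group consisted of 3 libraries from cells given the bta-miR-484 agomir, and the agomir NC group, the controls, consisted of 3 libraries from cells given the negative control, with total RNA collected 48 h after transfection in both groups. The comparison asked how gene expression differed between cells with added bta-miR-484 and control cells. The sources do not say whether the libraries within each group trace to separate calves or separate cultures, so every p-value here measures only the spread between these libraries, which may be technical. The level of bta-miR-484 itself was not analysed here, and the groups were taken from the labels.

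The labels call the cells adipocytes, whereas the marker genes were those of preadipocytes or other mesenchymal cells. *PDGFRA*, a receptor of mesenchymal progenitors, lay between 162 and 172 FPKM, and *COL3A1*, a fibrillar collagen gene, lay between 7428 and 7916 FPKM. Of the genes that define mature fat cells, *ADIPOQ* did not exceed 0.197 FPKM, *LEP* did not exceed 0.0368 FPKM and *CIDEC* did not exceed 0.230 FPKM in any library. The other 5 of the 8 fat cell genes examined had higher means, of 3.73 FPKM for *LPL*, 3.55 FPKM for *PPARG*, 2.39 FPKM for *FABP4*, 1.23 FPKM for *PLIN1* and 0.535 FPKM for *CEBPA*. *CD34* was at most 0.783 FPKM and *DLK1*, which is often used to mark preadipocytes, was listed at 0 in all 6 libraries. Genes that mark other cells were low, with *PECAM1* of endothelium at most 0.147 FPKM, *PTPRC* of leukocytes at most 0.119 FPKM, *MYOD1* and *MYOG* of muscle listed at 0, and *KRT18* of epithelium listed at 0. Higher values were found for *VWF*, between 2.99 and 3.67 FPKM, for *CD14*, between 5.85 and 6.45 FPKM, and for *CD68*, between 0.561 and 1.28 FPKM.

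FPKM, the unit of every level given here, is an estimate of fragments per kilobase of transcript, scaled to the mapped fragments of the library. The number of reads behind each library is unknown. The FPKM values summed to between 365977 and 379361 per library, and the 10 most abundant genes held 11.1% to 11.7% of that sum. Correlations of log2 levels across genes, which are not independent replicates, were 0.993 to 0.994 between libraries of the same group and 0.991 to 0.993 between libraries of different groups.

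All 37 synthetase genes averaged at least 0.5 FPKM and entered the test, so none was lost to the filter on low values. Together they held 0.545% to 0.573% of the summed FPKM of a library. The sum over the 37 genes was 2005, 2107 and 2065 FPKM in the agomir libraries and 2070.03, 2027 and 2078 FPKM in the agomir NC libraries. The groups overlapped, with means of 2059 ± 51.3 FPKM and 2058 ± 27.6 FPKM (SD, n = 3 each).

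The cytosolic genes were the more abundant class. Their mean levels had a median of 62.0 FPKM, compared with 6.40 FPKM for the mitochondrial genes and 8.36 FPKM for the 12422 genes tested. *WARS*, which encodes the cytosolic tryptophanyl-tRNA synthetase and is known as an interferon-induced gene, was the most abundant synthetase at 491 FPKM and stood at percentile 99.2 of the genes tested. It was followed by the glycyl, seryl, alanyl and threonyl enzymes, with *GARS* at 194 FPKM, *SARS* at 166 FPKM, *AARS* at 156 FPKM and *TARS* at 131 FPKM. The level of *WARS* was above that of *GARS* in every library by more than the spread of either gene. The next genes in order were *NARS* at 99.3 FPKM and *KARS* at 94.7 FPKM, whose ranges over the libraries overlapped. *DARS*, *YARS*, *EPRS* and *CARS* formed a close group between 60.5 and 68.8 FPKM.

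At the lower end of the cytosolic class, *LARS*, the leucyl-tRNA synthetase gene, averaged 17.1 FPKM. Its levels were 16.2, 17.9 and 17.8 FPKM in the agomir group, against 17.9, 16.4 and 16.7 FPKM in the agomir NC group. The groups overlapped, and the log2 fold change, agomir minus agomir NC on the scale of log2(FPKM + 0.5), was 0.025 with a standard error (SE) of 0.062. *FARSA* and *FARSB* encode the α and β subunits of the phenylalanyl-tRNA synthetase, which contains equal numbers of each. *FARSB* averaged 38.3 FPKM and *FARSA* averaged 19.1 FPKM, and the ratio of *FARSB* to *FARSA* was 2.00 ± 0.187 in the agomir libraries and 2.01 ± 0.160 in the agomir NC libraries (SD, n = 3 each, exact permutation test, two-sided p = 0.9).

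Of the 20 cytosolic genes, 14 had a mean above that of every mitochondrial gene. The most abundant mitochondrial gene was *IARS2*, which encodes the isoleucyl-tRNA synthetase of the organelle. Its levels were 37.7, 39.5 and 40.1 FPKM in the agomir group, against 40.2, 38.5 and 37.3 FPKM in the agomir NC group. These groups overlapped along nearly their whole range, and the log2 fold change was 0.016 (SE 0.049). After *IARS2* came *CARS2* at 19.4 FPKM, and then *WARS2* at 13.2 FPKM. *SARS2* and *FARS2*, both at 12.3 FPKM, had ranges that overlapped each other. The lowest in the class were *PARS2* at 1.82 FPKM and *MARS2* at 1.62 FPKM.

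**Figure D1:**
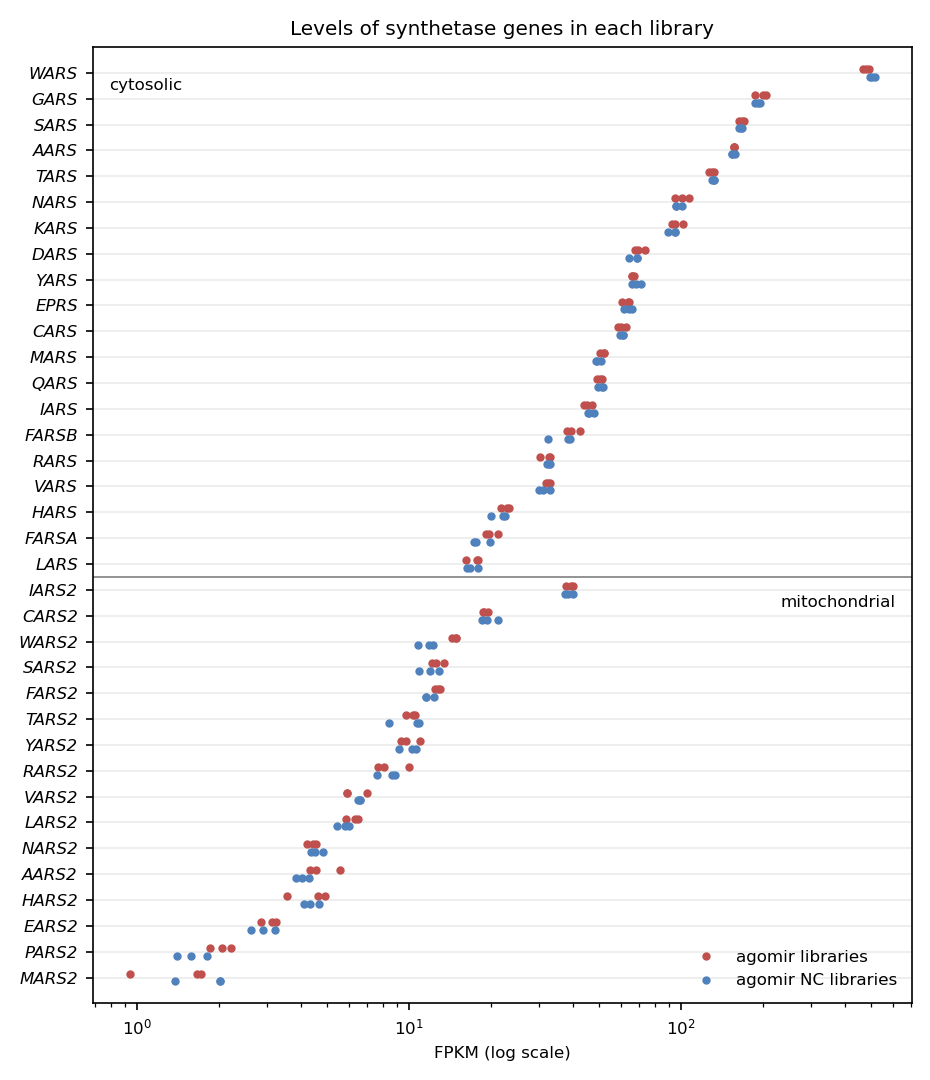
Levels of 36 of the synthetase genes in each library, in FPKM on a logarithmic axis, with 20 cytosolic genes above the line and 16 mitochondrial genes beneath it. Each point is a library (red, agomir; blue, agomir NC), and the levels run from *WARS* at a mean of 491 FPKM to *MARS2* at a mean of 1.62 FPKM.

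The less abundant mitochondrial genes varied more between libraries. The median coefficient of variation within a group was 3.20% for the cytosolic genes and 7.85% for the mitochondrial genes. The 2 libraries numbered 2 stood at opposite ends for many of these genes. The agomir library 2 held the highest level of 12 of the 37 synthetase genes, while the agomir NC library 2 held the lowest level of 13. Over all genes tested, the agomir library 2 was highest for 24.0% of genes and the agomir NC library 2 was lowest for 21.4%. The agomir library 1 was lowest for 12 of the 37 genes, 10 of them cytosolic, and for 15.2% of all genes tested.

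No synthetase gene passed an adjusted p of 0.05 in limma's moderated test, in which p-values were adjusted over all 12422 genes. At that threshold, 1 gene of the 12422 passed (0.00805%). This count was 0 in several alternatives, among them the replicate block, and 2 without the agomir NC library 3. At an unadjusted p under 0.05, *WARS2* and *PARS2* were higher with the agomir, 2 of 37 (5.41%) beside 6.63% of all genes tested. At the same threshold, 0 of 37 synthetase genes were lower, beside 4.31% of all genes tested. All 3 agomir libraries lay above all 3 agomir NC libraries for 4 of 37 synthetase genes (10.8%), compared with 10.9% of all genes tested. These 4, *WARS2*, *PARS2*, *AARS2* and *FARS2*, were all mitochondrial, 4 of 17 in that class (23.5%), beside 0 of 20 cytosolic genes. All 3 lay beneath for 1 of 37, *WARS* (2.70%), compared with 6.36%. Over the 37 genes, these shares were near or under those of all genes tested. Within the mitochondrial class, the share above without overlap (23.5%) and the share higher at an unadjusted p under 0.05 (2 of 17, 11.8%) exceeded them. Both counts were 0 of 20 in the cytosolic class, and the difference between the classes was not tested.

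The median log2 fold change was 0.018 for the cytosolic genes, 0.035 for the mitochondrial genes and 0.013 for all genes tested, an order of the classes that turned with quantile normalization. With a library left out, the cytosolic median ran from 0.0057 without the agomir NC library 2 to 0.038 without the agomir library 1. The mitochondrial median lay between 0.040 and 0.073, and the cytosolic median was -0.0074 without both libraries numbered 2. Positive values were found in 13 of 20 cytosolic genes and in 12 of 17 mitochondrial genes, and in 55.1% of all genes tested. A log2 fold change smaller than 0.1 in size was found for 18 of the 20 cytosolic genes, the exceptions being *FARSA* and *FARSB*, and for 10 of the 17 mitochondrial genes, compared with 61.8% of all genes tested. The test also gave each gene a 95% confidence interval of its difference. For 20 of 20 cytosolic genes, this interval lay inside a 1.25-fold difference in either direction, and the same held for 12 of 17 mitochondrial genes and for 61.5% of all genes tested. The intervals of *AARS2*, *MARS2*, *PARS2* and *WARS2* were among those that reached past 1.25-fold. In bulk RNA such as this, fewer cells of a type and less RNA per cell cannot be told apart.

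**Figure D2:**
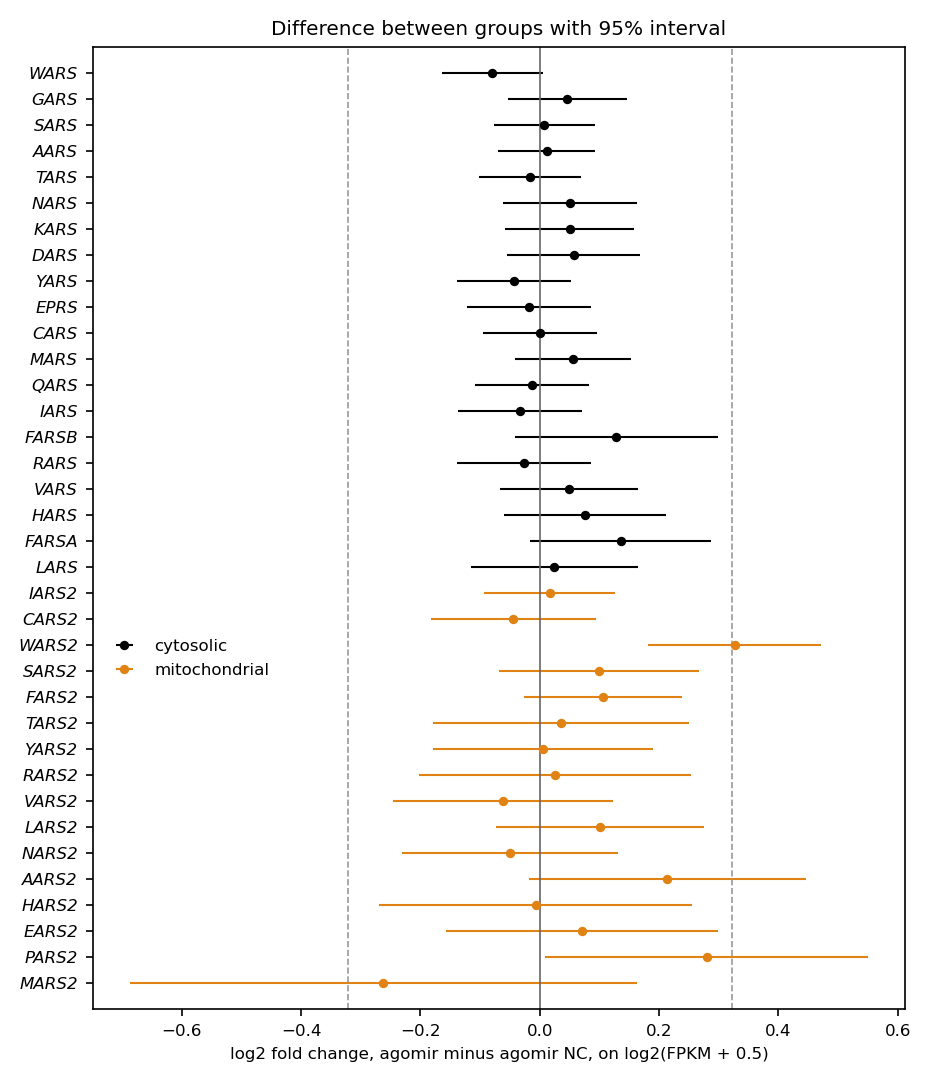
Log2 fold changes of 36 of the synthetase genes, agomir minus agomir NC on the scale of log2(FPKM + 0.5), with 95% confidence intervals from limma. Genes are in the order of their mean level within the cytosolic class (black) and the mitochondrial class (orange), the dashed lines mark a 1.25-fold difference, and the intervals of all 20 cytosolic genes lie between them, while that of *WARS2* runs from 0.18 to 0.47.

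Among the mitochondrial genes, *WARS2* showed the lowest adjusted p of the 37. It encodes the tryptophanyl-tRNA synthetase of mitochondria, and in the RefSeq table of assembly ARS-UCD2.0 it neighbours *TBX15*, a transcription factor gene whose shared locus with *WARS2* is known from human studies of fat distribution. The levels of *WARS2* were 14.4, 14.9 and 14.8 FPKM in the agomir libraries and 10.8, 12.3 and 11.9 FPKM in the agomir NC libraries. Every agomir library was above every control library, and the agomir libraries were close to each other. The means were 14.7 ± 0.305 FPKM and 11.6 ± 0.780 FPKM (SD, n = 3 each), a difference of 26.3%. The log2 fold change was 0.33 (SE 0.065), and limma's adjusted p was 0.191. By the exact permutation test over the 20 labelings of the libraries, two-sided, p = 0.1, which is the smallest that 3 libraries against 3 can give. *TBX15* averaged 2.70 ± 0.414 FPKM in the agomir group, against 2.61 ± 0.219 FPKM in the control group, and its groups overlapped.

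*PARS2*, which encodes the prolyl-tRNA synthetase of mitochondria, was one of the least abundant members. Its levels were 2.22, 1.85 and 2.06 FPKM in the agomir group, against 1.81, 1.40 and 1.58 FPKM in the agomir NC group. The groups did not overlap, but the lowest agomir library exceeded the highest control library by little. The log2 fold change was 0.28 (SE 0.12), with an adjusted p of 0.442. This gene was no longer under an unadjusted p of 0.05 when the agomir library 1 or 3 or the agomir NC library 2 or 3 was left out.

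*AARS2*, the mitochondrial alanyl-tRNA synthetase gene, had levels of 4.56, 5.56 and 4.31 FPKM in the agomir group, against 4.30, 3.85 and 4.03 FPKM in the agomir NC group. The agomir library 2 stood above the rest, and the lowest agomir value was almost equal to the highest control value. The log2 fold change was 0.21 (SE 0.10), with an adjusted p of 0.494, and it was 0.12 without the agomir library 2. This gene was under an unadjusted p of 0.05 only when the agomir library 3 was left out. *FARS2*, which encodes the single-chain mitochondrial phenylalanyl-tRNA synthetase, had levels of 12.45, 12.8 and 13.0 FPKM in the agomir group, against 11.5, 11.5 and 12.35 FPKM in the agomir NC group. Here, too, the groups were separated by a narrow gap, and the third control library lay next to the agomir libraries. The log2 fold change was 0.11 (SE 0.059), with an adjusted p of 0.556.

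*MARS2*, the mitochondrial methionyl-tRNA synthetase gene and the least abundant member, showed the most negative log2 fold change of the 37. Its levels were 0.941, 1.72 and 1.66 FPKM in the agomir group, against 2.02, 1.38 and 2.01 FPKM in the agomir NC group. The groups overlapped, and the lowest value was that of the agomir library 1. The log2 fold change was -0.26 (SE 0.19, adjusted p = 0.651) with all libraries, and with 1 library left out it ran from -0.40 without the agomir NC library 2 to -0.061 without the agomir library 1. *LARS2* and *SARS2*, which serve leucine and serine, had log2 fold changes of 0.10 and 0.099 with overlapping groups. Among genes nearer to 0, *VARS2*, which serves valine, had a log2 fold change of -0.062 and *EARS2*, which serves glutamate, had one of 0.071, and their groups overlapped as well.

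The summed level of the 17 mitochondrial genes was 157.3, 164 and 165 FPKM in the agomir group, against 156.6, 154 and 156.9 FPKM in the agomir NC group. The groups did not overlap, although the agomir library 1 differed little from the control libraries, and the means were 162 ± 4.17 FPKM and 156 ± 1.55 FPKM (SD, n = 3 each). The difference between these means was 6.32 FPKM with *WARS2* and 3.26 FPKM without it. Without *WARS2* the sums of the groups overlapped. The ratio of the cytosolic to the mitochondrial sum, which does not depend on how a library is scaled, was 11.7, 11.8 and 11.5 in the agomir libraries and 12.2, 12.2 and 12.2 in the agomir NC libraries. Its agomir values were all lower than its control values. With *WARS* and *WARS2* both left out of the sums, the groups overlapped, with ratios of 9.62 ± 0.118 and 9.69 ± 0.0405 (SD, n = 3 each).

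**Figure D3:**
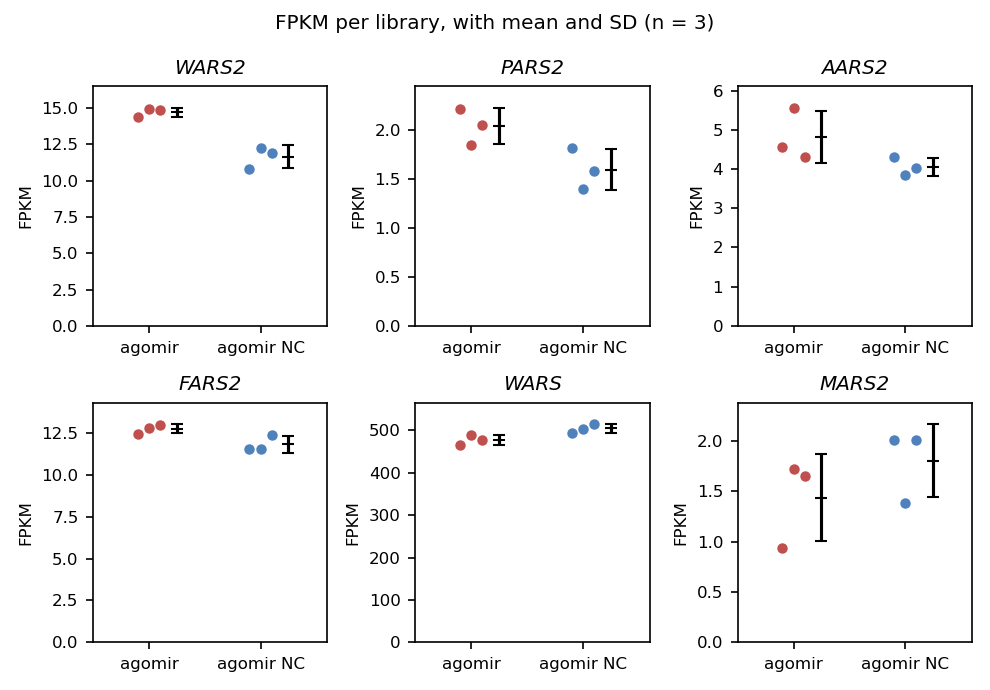
Levels of *WARS2*, *PARS2*, *AARS2*, *FARS2*, *WARS* and *MARS2* in FPKM on axes that start at 0, with a point for each library (red, agomir; blue, agomir NC) and the mean with its SD beside the points (n = 3 each). The agomir libraries lie above the agomir NC libraries for the first 4 genes and beneath them for *WARS*, while the groups overlap for *MARS2*.

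In the cytosolic class, *WARS* was the only gene whose groups did not overlap. Its levels were 467, 489 and 477 FPKM in the agomir libraries and 495, 505 and 515 FPKM in the agomir NC libraries. All agomir values were lower than all control values, the opposite order from *WARS2*. The means were 478 ± 11.1 FPKM and 505 ± 9.69 FPKM (SD, n = 3 each), a difference of -5.36%. The log2 fold change was -0.079 (SE 0.038), with an adjusted p of 0.479, and -0.026 with quantile normalization.

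*FARSA* and *FARSB* had the most positive log2 fold changes of the cytosolic class. *FARSA* was measured at 21.3, 19.2 and 19.7 FPKM in the agomir group, against 19.8, 17.3 and 17.6 FPKM in the agomir NC group, a log2 fold change of 0.14 (SE 0.068). *FARSB* was measured at 39.3, 42.4 and 38.1 FPKM in the agomir group, against 39.0, 32.3 and 38.5 FPKM in the agomir NC group, a log2 fold change of 0.13 (SE 0.076). The groups overlapped for both subunits, and the low value of *FARSB* in the agomir NC library 2 stood apart from the other 5. The next among the positive values was *HARS*, the histidyl-tRNA synthetase gene, at 0.076. At the level of *AARS*, the libraries were nearly alike, with means of 156 ± 0.606 FPKM and 155 ± 2.65 FPKM (SD, n = 3 each). *CARS*, the cysteinyl-tRNA synthetase gene, had the smallest difference, with means of 60.5 ± 1.97 FPKM and 60.5 ± 0.790 FPKM.

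Several cytosolic synthetases are held together in the multisynthetase complex, in which *EPRS* supplies a fused enzyme for glutamate and proline. The 8 genes of its enzymes, *EPRS*, *IARS*, *LARS*, *QARS*, *MARS*, *KARS*, *RARS* and *DARS*, had log2 fold changes between -0.033 and 0.057 with a median of 0.0056. Of these, 4 were positive and 4 negative. At an unadjusted p under 0.05, 0 of 8 passed, beside 6.63% higher and 4.31% lower of all genes tested. The 3 scaffold genes of the complex, *AIMP1*, *AIMP2* and *EEF1E1*, had a median log2 fold change of -0.099. Of these, 0 of 3 were under an unadjusted p of 0.05, beside the same shares of all genes tested. *AIMP2* was measured at 13.1, 15.6 and 16.5 FPKM in the agomir group, against 17.4, 17.8 and 15.5 FPKM in the agomir NC group. Its groups overlapped, and the log2 fold change was -0.17 (SE 0.091).

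For 14 amino acids, separate genes encode a single-chain cytosolic and a mitochondrial enzyme, and the cytosolic gene was the more abundant in 14 of 14 pairs. The ratio of the mean FPKM values ran from 1.18 for *IARS* to *IARS2* up to 37.3 for *WARS* to *WARS2*, with a median of 9.84. Low ratios were also seen for leucine, at 2.87, and for cysteine, at 3.12. The ratio of *WARS* to *WARS2* was 32.5, 32.8 and 32.1 in the agomir libraries and 46.0, 41.1 and 43.3 in the agomir NC libraries. The agomir values were almost equal to each other and lay well beneath the control values, with means of 32.5 ± 0.331 and 43.5 ± 2.44 (SD, n = 3 each, exact permutation test, two-sided p = 0.1). For *AARS* to *AARS2*, the ratio was 34.5, 28.2 and 36.1 with the agomir and 36.8, 39.9 and 38.2 in the agomir NC group. For *IARS* to *IARS2*, it was 1.166, 1.188 and 1.123 with the agomir and 1.191, 1.192 and 1.216 in the agomir NC group. The groups of these 3 ratios did not overlap, by a small margin in the alanine and isoleucine pairs, and the groups of the other 11 ratios overlapped. In the exact permutation test, two-sided, each of the 3 had p = 0.1, the smallest this design can give, so none of the 14 ratios could reach 0.05.

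Glutamine has no mitochondrial synthetase of its own in mammals: *EARS2* charges the glutamine tRNA with glutamate, and the amidotransferase made from *QRSL1*, *GATB* and *GATC* converts it. *MTFMT* formylates the initiator methionyl-tRNA after *MARS2* has charged it. Of these 4 partner genes, 1 was higher at an unadjusted p under 0.05 (beside 6.63% of all genes tested) and 0 were lower (beside 4.31%), and the median log2 fold change was 0.081. The higher gene was *QRSL1*, at 10.3, 12.5 and 11.6 FPKM in the agomir group, against 10.1, 8.84 and 9.72 FPKM in the agomir NC group. Its groups did not overlap, the agomir library 1 lying just above the first control library, and the log2 fold change was 0.25 (SE 0.084, adjusted p = 0.358). *EARS2* itself averaged 3.08 ± 0.195 FPKM in the agomir group, against 2.91 ± 0.293 FPKM in the control group (SD, n = 3 each), with overlapping groups.

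The charged tRNAs are received by elongation factors. Of the 6 cytosolic elongation factor genes listed, 5 were tested, *EEF1A2* being under the filter, and 1 was higher (beside 6.63% of all genes tested) and 0 were lower at an unadjusted p under 0.05, with a median log2 fold change of -0.023. This gene was *EEF1D*, which encodes a nucleotide exchange subunit, at 108, 109 and 114 FPKM in the agomir group, against 102, 95.3 and 106 FPKM in the agomir NC group. The groups did not overlap, and the log2 fold change was 0.13 (SE 0.049, adjusted p = 0.399). *EEF1A1*, whose product carries aminoacyl-tRNA to the cytosolic ribosome, lay between 1377 and 1603 FPKM with overlapping groups. The mitochondrial elongation factor genes *TUFM*, *TSFM* and *GFM1* had a median of -0.041. Of these, 0 of 3 were under an unadjusted p of 0.05, beside 6.63% higher and 4.31% lower of all genes tested.

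The genes that remove wrongly attached amino acids from tRNA, *AARSD1*, *PRORSD1*, *DTD1* and *DTD2*, had positive log2 fold changes in 4 of 4, beside 55.1% of all genes tested, with a median of 0.073 and 0 under an unadjusted p of 0.05. The largest of these was 0.093, for *DTD1*. Selenocysteine is made on a tRNA that *SARS* first charges with serine. The 4 genes of that route, *SEPSECS*, *PSTK*, *EEFSEC* and *SECISBP2*, had a median of 0.018, with 0 of 4 under an unadjusted p of 0.05. At that threshold, 6.63% of all genes tested were higher and 4.31% were lower.

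Genes of tRNA maturation and export included *HSD17B10*, which had the lowest adjusted p of all the lists. Of 23 listed genes, 22 were tested, *RPP25* being under the filter, and 2 were higher (9.09%) and 2 lower (9.09%) at an unadjusted p under 0.05, beside 6.63% and 4.31% of all genes tested, with a median log2 fold change of -0.039. *HSD17B10* encodes a subunit of the mitochondrial ribonuclease P, which cuts the leader from mitochondrial tRNA precursors, and also a dehydrogenase of isoleucine breakdown. Its levels were 12.9, 12.9 and 12.9 FPKM in the agomir group, against 10.3, 8.67 and 9.63 FPKM in the agomir NC group, a log2 fold change of 0.42 (SE 0.072, adjusted p = 0.122). The agomir libraries were all but identical and lay above every control library. The other subunit genes of this enzyme, *TRMT10C* and *PRORP*, the latter listed as *KIAA0391*, had log2 fold changes of -0.072 and -0.20, and the groups of *TRMT10C* overlapped. *KIAA0391* was at 2.22, 2.18 and 2.23 FPKM in the agomir group, against 2.87, 2.51 and 2.47 FPKM in the agomir NC group. These groups did not overlap, the agomir libraries being the lower (adjusted p = 0.504).

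*POP4*, which encodes a protein subunit of the nuclear ribonuclease P, was measured at 7.00, 6.17 and 6.64 FPKM in the agomir group, against 8.66, 8.77 and 8.13 FPKM in the agomir NC group. The agomir libraries were all lower, with a log2 fold change of -0.35 (SE 0.074, adjusted p = 0.218). *TSEN15* encodes a subunit of the endonuclease that removes introns from tRNA precursors. It was measured at 10.7, 11.1 and 11.3 FPKM in the agomir group, against 12.0, 12.3 and 12.5 FPKM in the agomir NC group, a log2 fold change of -0.14 (SE 0.058, adjusted p = 0.412). The groups did not overlap for *POP4* or *TSEN15*, and neither gene passed an adjusted p of 0.05.

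The amino acid response, through which the kinase *EIF2AK4* and the transcription factor *ATF4* induce synthetase genes, was represented by 23 genes. Of these, 0 were higher and 4 were lower (17.4%) at an unadjusted p under 0.05, beside 6.63% and 4.31% of all genes tested. Negative log2 fold changes were found in 20 of 23 (87.0%), beside 44.9% of all genes tested, with a median of -0.046, and the difference between the list and the other genes was not tested. *ATF4* was measured at 224, 228 and 220.3 FPKM in the agomir group, against 225, 217 and 229.96 FPKM in the control group, so that its groups overlapped. *PHGDH*, which encodes the first enzyme of serine synthesis, was at 217, 216 and 218 FPKM in the agomir group, against 234, 233 and 237 FPKM in the control group. The libraries of each group were close together and the groups well apart, with a log2 fold change of -0.11 (SE 0.035, adjusted p = 0.333). *DDIT4*, an inhibitor of mTORC1 signalling, was at 117, 122.6 and 125 FPKM in the agomir group, against 127, 147 and 149 FPKM in the control group, a log2 fold change of -0.21 (SE 0.062, adjusted p = 0.310). *PCK2*, the mitochondrial phosphoenolpyruvate carboxykinase gene, was measured at 27.1, 28.8 and 29.1 FPKM in the agomir group, against 32.2, 29.7 and 32.9 FPKM in the agomir NC group. Neither *DDIT4* nor *PCK2* had overlapping groups, and the log2 fold change of *PCK2* was -0.15 (SE 0.056, adjusted p = 0.378). The fourth gene, *ATF5*, a transcription factor of stress responses, had overlapping groups and a log2 fold change of -0.17 (SE 0.077, adjusted p = 0.448). Beside these genes, 0 of 20 cytosolic synthetase genes were lower at an unadjusted p under 0.05, although *WARS* passed that line with median-ratio scaling of the libraries.

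Of 8 marker genes of mature fat cells, 5 were tested, and 1 was higher and 1 was lower at an unadjusted p under 0.05, beside 6.63% and 4.31% of all genes tested, but neither passed an adjusted p of 0.05. Of the 5 log2 fold changes, 4 were positive, and the median of the 5 was 0.14. The higher gene was *PPARG*, the master transcription factor of fat cells, at 3.99, 3.69 and 3.91 FPKM in the agomir group, against 3.39, 3.34 and 2.96 FPKM in the agomir NC group. The lower gene was *FABP4*, a fatty acid binding protein gene, at 1.82, 2.33 and 1.54 FPKM in the agomir group, against 3.57, 2.21 and 2.88 FPKM in the agomir NC group. The groups of *PPARG* did not overlap (adjusted p = 0.407) and those of *FABP4* did (adjusted p = 0.363), and all of these values were low beside those of the matrix genes. The summed level of the 8 genes was 11.5, 12.3 and 11.4 FPKM in the agomir group, against 12.6, 11.0 and 11.1 FPKM in the agomir NC group, with *LPL* or *PPARG* the most abundant gene in each library. Of 7 mesenchymal genes tested, 0 were higher and 1 was lower at an unadjusted p under 0.05, beside 6.63% and 4.31% of all genes tested, and the median log2 fold change was -0.027, with 2 positive and 5 negative. The lower gene was *DCN*, a proteoglycan gene (adjusted p = 0.376), at 2840.4, 2899 and 2850.4 FPKM in the agomir group, against 2991, 3102 and 3248 FPKM in the control group. The summed level of the 9 mesenchymal genes listed lay between 17531 and 18685 FPKM, with *COL3A1* the most abundant. The part of these markers in the synthetase results was not tested.

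All 37 synthetase genes had a match in the RefSeq table of assembly ARS-UCD2.0, which differs from the assembly of the deposited values. In that table, 15 of the 37 overlapped another gene model, and 10 of these overlapped a protein-coding gene. The strand setting of the quantification was not given in the sources used here. It is therefore unknown whether reads from stretches shared by overlapping genes were told apart, and the values of these genes are uncertain to that extent. *WARS2*, *PARS2*, *AARS2* and *WARS* overlapped no other model, while *FARS2* overlapped a long noncoding RNA model and a tRNA. *MARS* overlapped *DDIT3*, a target of *ATF4*, which had a log2 fold change of -0.046, and *MARS2* overlapped *RFTN2*, which averaged 5.29 ± 0.786 FPKM in the agomir group, against 5.23 ± 1.39 FPKM in the control group. *HARS* and *HARS2* lay next to each other, with log2 fold changes of 0.076 and -0.0069.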

How the data were processed

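RNA from transfected bovine preadipocytes had been sequenced as 6 libraries on an Illumina HiSeq instrument. The submitters' processing notes name fastp, HISAT2, StringTie and the build ARS-UCD1.2, with no versions of the programs, and the deposited values are FPKM for each gene in each library. Whole reads could not be recovered from these values: when log2 ratios between libraries were sorted into bins 0.002 wide, no bin held more than 10 of 2983 low genes. Depth is therefore unknown.

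Of 23475 genes, the 12422 averaging 0.5 FPKM or more over the 6 libraries were taken as log2(FPKM + 0.5), which understates differences of low genes. The groups were compared with limma 3.58.1 in R 4.3.3 (linear model, two-sided moderated test, variance trend), with Benjamini-Hochberg adjustment over all genes tested. The model was tested on simulated data. Single ratios were compared by exact permutation over the 20 labelings.

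Values in every library were given for members under an unadjusted p of 0.05, members whose groups did not overlap, and the most and least abundant member of each class. *FARSA*, *FARSB*, *AIMP2*, *KIAA0391* and *ATF4* were chosen after their values were seen. Of each list, genes under an unadjusted p of 0.05 were named. Some results under these rules are not reported here, and the genes concerned are counted but neither named nor drawn. The members and lists were chosen with earlier results of these data known. Alternatives were other pseudocounts, filters, scalings and variance models, the replicate number as a block, and libraries left out.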

Additional observations from a re-analysis of the deposited data

How the results depend on the processing

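No synthetase gene passed an adjusted p of 0.05 in limma under any of the 15 alternatives, and the lowest adjusted p of a member ranged from 0.186 to 0.659. *WARS2* was under an unadjusted p of 0.05 in 15 of 15, with log2 fold changes of 0.27 to 0.36, and *PARS2* in 8 of 15, with 0.21 to 0.35. The number of members higher at that threshold, 2 as reported, was 1 with no filter, 1 with median-ratio scaling and 1 to 3 when a library was left out. It was 3 without the agomir NC library 1 (*FARSA*, *PARS2* and *WARS2*), and 1 without the agomir library 1, the agomir NC library 2 or the agomir NC library 3. The number lower, 0 as reported, was 1 with median-ratio scaling, where *WARS* was at -0.095, compared with -0.079 as reported and -0.026 with quantile normalization. With both libraries numbered 2 left out, a setting added after seeing the data, 1 was higher and 1 was lower, the latter being *MARS2* at -0.51. In that setting, the cytosolic median was -0.0074. The mitochondrial median, 0.035 as reported, was 0.040 to 0.073 when a library was left out, the highest without the agomir library 1, and the cytosolic median, 0.018 as reported, was 0.0057 to 0.038. With median-ratio scaling, the mitochondrial median was 0.021 and the cytosolic 0.0032. With quantile normalization, the mitochondrial median was 0.015 and lay beneath the cytosolic, at 0.022. The cause of these shifts was not tested. Signs turned for *LARS*, at -0.025 with both libraries numbered 2 left out and -0.0014 to 0.069 with a library left out, and for *IARS2*, at -0.0086 to 0.044. Of 120 values of 8 single genes, 116 kept their direction, and 120 of 120 had an adjusted p above 0.05. *AARS2*, *MARS2* and *WARS* were each under an unadjusted p of 0.05 in 1 of 15 alternatives.

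Deviations of libraries with the same number had correlations of -0.051, 0.053 and 0.039, so no shared deviation was seen, and the libraries were not treated as paired in the main test. With the replicate block, 2 members were under an unadjusted p of 0.05 (*PARS2* and *WARS2*), and 1260 of all genes tested compared with 1359 without it.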
